A study of Mus musculus with 4 samples.

Results

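The calcium/calmodulin-dependent kinases described here are 10 genes, Camk2a, Camk2b, Camk2d, Camk2g, Camk4, Camk1d, Camk1g, Camkk1, Camkk2 and Camkv, taken by name. All 10 were among the 20211 gene symbols listed in every library of a mouse hippocampus data set. Nuclear RNA was counted in 4 single-nucleus libraries made with a 10x Genomics multiome kit. Each library carried 1 genotype: wild type, total (global) knockout, astrocyte-specific knockout and neuron-specific knockout of monoacylglycerol lipase (MAGL, gene Mgll), which degrades the endocannabinoid 2-arachidonoylglycerol. With 1 library per genotype there was no replicate of any genotype. Strain, age, treatment, the Cre drivers of the cell-type-specific knockouts and the number of animals pooled in a library were not given in the sources used here.

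Calcium entering a neuron binds calmodulin, and calcium-loaded calmodulin switches these kinases on. The Camk2 genes encode the subunits (alpha, beta, delta and gamma) that assemble into the CaMKII holoenzyme, known for its part in synaptic plasticity at excitatory synapses. CaMKI (here Camk1d and Camk1g) and the mostly nuclear CaMKIV (Camk4), known for phosphorylating CREB, are activated in turn by the CaMK kinases Camkk1 and Camkk2. Camkv encodes a CaMK-like protein of synaptic vesicles that lacks kinase activity.

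Nuclei were assigned to a class by the mean standardized log level of marker genes, and none of the 10 kinase genes was a marker. After filtering, 51320 of 60288 barcodes remained, 8682 to 23625 per library. Total counts of unique molecular identifiers (UMIs) were 81623644 to 193307038 per library, with a median of 5456 to 8904 per barcode. The library labelled total knockout stood apart: it had 31243 barcodes against 8945 to 10731, 23.5% called doublets against 1.72% to 5.68%, 827 of the 890 medium spiny neurons, a striatal type, and no nucleus called female, where the others held 39.6% to 46.5% female nuclei. Pairs of libraries shared 108 to 466 barcodes. Mgll itself was at 109, 90.01, 117 and 111 CPM (counts per 1000000 UMIs of the class) in excitatory neurons of the libraries labelled wild type, total, astrocyte and neuron knockout, and at 361, 316, 247 and 413 CPM in astrocytes. UMI counts over a whole gene do not show which part was deleted, and the deleted part was not given, so these values did not check the labels. Markers of granule, CA1, CA3 and mossy cells each defined their own gate, alongside subicular or cortical neurons and, in small numbers, thalamic neurons.

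Camk2a was at its highest in dentate granule and hippocampal pyramidal neurons, and Camk2b in granule neurons. In the order wild type, total, astrocyte and neuron knockout, Camk2a was at 1012, 973, 1021 and 1022 CPM in granule neurons, at 931, 960, 981 and 985 CPM in CA1 neurons and at 854, 903, 860 and 872 CPM in CA3 neurons. Granule and CA1 values overlapped over the libraries, with granule above CA1 within each library, and CA3 values lay below both. Subicular or cortical neurons had 374 to 402 CPM, and inhibitory neurons of the MGE type (Sst and Pvalb lineages, from the medial ganglionic eminence) and of the CGE type (Vip and related lineages, from the caudal one) had 210 to 249 and 221 to 305 CPM. Camk2b followed a different order. It was at 440, 472, 467 and 484 CPM in granule neurons, at 287, 307, 326 and 311 CPM in CA3 neurons and at 245, 262, 263 and 273 CPM in CA1 neurons, with no overlap between those 3 classes. Medium spiny neurons had 224 and 330 CPM of Camk2b in the wild-type and total knockout libraries, a range that took in the CA1 and CA3 values.

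**Figure D1:**
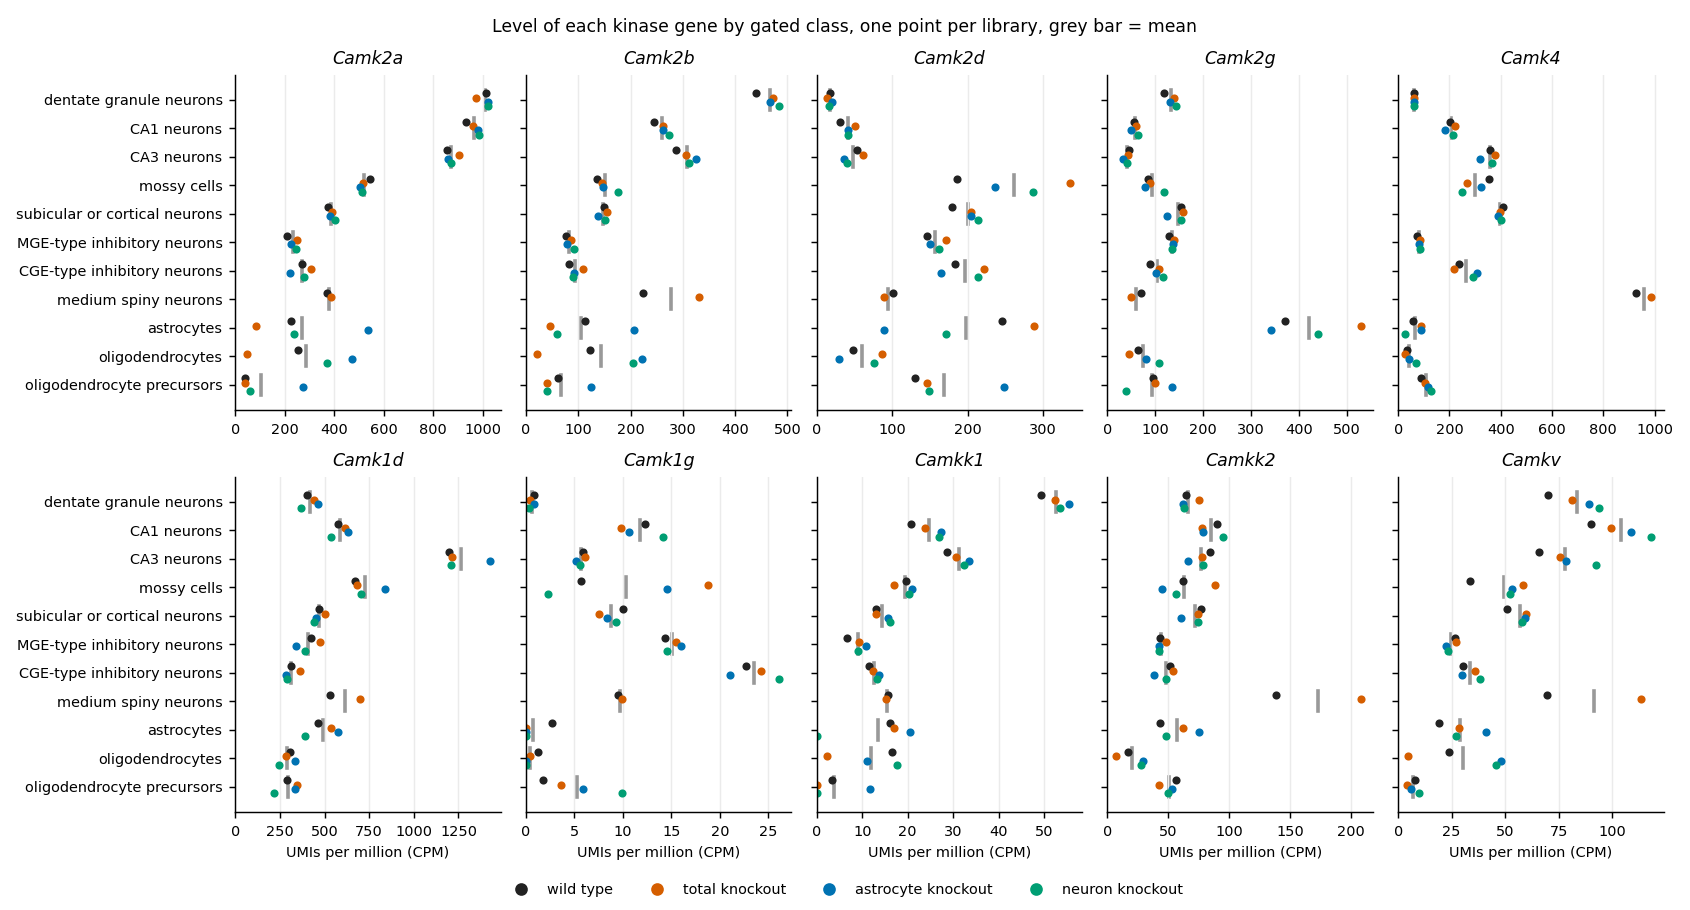
Level of each of the 10 genes (x axis, CPM, linear from 0, its own scale in each panel) in 11 gated classes (y axis), with 1 point per library and a grey bar at the mean over libraries. Classes with fewer than 20 nuclei in a library have no point there. Camk2a was at 854 to 1022 CPM in granule, CA1 and CA3 neurons and at 210 to 305 CPM in inhibitory neurons. Mossy cells (504 to 543 CPM), subicular or cortical neurons (374 to 402 CPM) and medium spiny neurons (368 to 387 CPM) lay between. Camk2d was lower in granule, CA1 and CA3 neurons than in inhibitory neurons.

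Camk2d, the delta subunit, was the reverse of these. Granule neurons had 18.2, 14.2, 19.8 and 16.2 CPM in the same library order, while CGE-type neurons had 183, 221, 165 and 214 CPM and MGE-type neurons 146, 171, 150 and 163 CPM. Subicular or cortical neurons (180 to 214 CPM) and mossy cells, the excitatory neurons of the hilus (186 to 336 CPM), overlapped with inhibitory neurons or lay above them. The thalamic gate was above all of these, at 459, 544, 681 and 580 CPM, from 665 nuclei of which 445 lay in clusters that were not named. Camk2g, the gamma subunit, was highest in astrocytes, at 372, 530, 343 and 440 CPM from 33 to 108 nuclei per library, above every other class and with no overlap. Among neurons it was at 119 to 142 CPM in granule neurons, 124 to 157 in subicular or cortical and 128 to 139 in MGE-type neurons, ranges that overlapped. It was lower in CA1 (50.2 to 64.8 CPM), in medium spiny neurons (69.3 and 48.8 CPM in the wild-type and total knockout libraries) and in CA3 (33.3 to 45.8 CPM).

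The promoters of Camk2b and Camk2d are shown beside their levels over all excitatory neurons together. Camk2b was higher there, and Camk2d lower, than in inhibitory neurons. Subicular or cortical neurons and mossy cells did not share the lower Camk2d level. RefSeq promoter entries on GRCm38.p6, the build that the submitters' processing notes call mm10, matched 7 of the 10 genes. Only Camk2b, Camk2d, Camk1d and Camk1g had a window outside exons long enough to print, so they were not picked by their levels. Camkk1 and Camkk2 had 0 bases outside exons and Camkv had 4. The sequences run 5′ to 3′ up to the RefSeq start on the gene's own strand, in bases that hold no GENCODE exon, with CG dinucleotides in capitals. Camk2b lies on the minus strand at chr11:5969644-6066362 and its window at chr11:6065749-6065998. Camk2d lies on the plus strand at chr3:126596302-126846326 and its window at chr3:126596701-126596950. Each window lies inside the annotated gene, past its first annotated base, so it is not upstream of every annotated transcript.
Camk2b: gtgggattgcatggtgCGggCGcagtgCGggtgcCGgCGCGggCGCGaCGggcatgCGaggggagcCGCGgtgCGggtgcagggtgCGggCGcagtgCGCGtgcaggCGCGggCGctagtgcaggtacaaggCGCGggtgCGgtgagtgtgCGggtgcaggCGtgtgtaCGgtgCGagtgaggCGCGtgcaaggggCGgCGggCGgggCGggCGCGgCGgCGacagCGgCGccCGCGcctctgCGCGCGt
Camk2d: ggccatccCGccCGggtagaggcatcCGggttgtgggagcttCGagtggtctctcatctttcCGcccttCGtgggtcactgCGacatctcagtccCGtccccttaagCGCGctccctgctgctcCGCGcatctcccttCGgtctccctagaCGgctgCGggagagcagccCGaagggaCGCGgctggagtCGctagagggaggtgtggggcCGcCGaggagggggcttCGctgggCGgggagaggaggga
The Camk2b window held 44 CG dinucleotides and 78.4% G or C. Camk2d held 23 and 68.4%. The median of 32851 promoter windows of 250 bases was 6 CG dinucleotides, 0.539% of them held 44 or more, and 13.3% held 23 or more. The cyclic AMP response element half-site TGACG, searched on both strands, was in neither window (17.8% of all windows hold it), nor was the E-box CANNTG (66.2%).

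Because the 4 Camk2 genes contribute subunits to 1 enzyme family, their shares of all Camk2 UMIs were taken in each class. Camk2a supplied 60.9% to 63.7% of Camk2 UMIs in granule neurons, 72.1% to 73.7% in CA1 and 68.5% to 69.0% in CA3 neurons. In subicular or cortical neurons it supplied 43.2% to 45.1% and in inhibitory neurons 38.4% to 39.7%. Camk2d moved from 0.890% to 1.21% in granule neurons to 27.5% to 29.1% in inhibitory neurons, and Camk2g from 2.65% to 3.69% in CA3 to 17.7% to 19.8% in inhibitory neurons. Camk2b was at 27.7% to 29.5% in granule neurons and 19.4% to 20.0% in CA1 neurons. The Camk2a ranges of these 5 classes did not overlap, while the Camk2d ranges of CA1 (2.49% to 3.78%) and CA3 neurons (2.88% to 4.64%) did. Nuclear counts can include unspliced RNA and then grow with gene length, which is 62.5 kb for Camk2a, 96.7 kb for Camk2b, 250 kb for Camk2d and 59.2 kb for Camk2g. Per kb of gene, Camk2a made up 68.1% to 70.9% of the family in granule neurons and 51.0% to 53.3% in inhibitory neurons, and Camk2d 0.249% to 0.338% and 9.09% to 9.78%. In inhibitory neurons the order of Camk2d and Camk2g turned with this scale, since Camk2g made up 25.1% to 27.8% per kb.

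**Figure D2:**
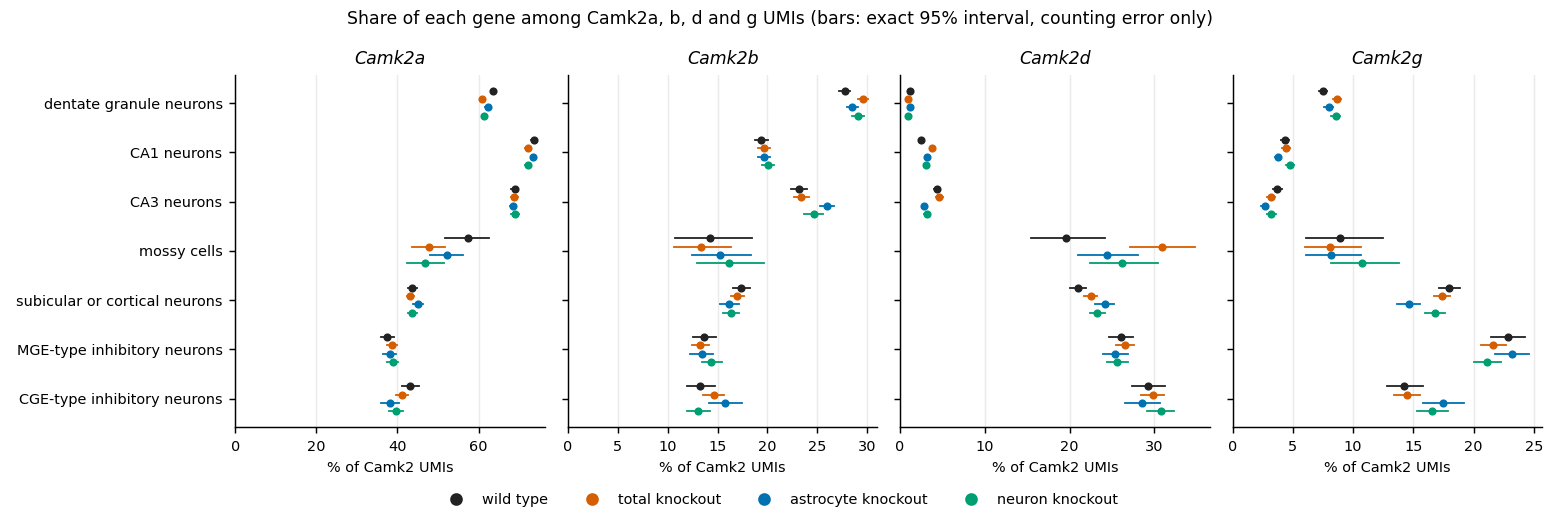
Share of each gene among the UMIs of Camk2a, Camk2b, Camk2d and Camk2g (x axis, percent, linear from 0, its own scale in each panel) in 7 neuronal classes (y axis), with 1 point per library and an exact Clopper-Pearson 95% interval that covers counting error only. The Camk2a share is 72.1% to 73.7% in CA1 neurons against 38.2% to 43.2% in CGE-type neurons, and the Camk2d share is lowest in granule neurons at 0.890% to 1.21%.

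Between excitatory and inhibitory neurons, 9 of 10 genes differed in a test across the 4 libraries (edgeR's quasi-likelihood test with the library as a block, called at a Benjamini-Hochberg adjusted p under 0.05 over all genes): 7 were higher and 2 lower in excitatory neurons. Of all 18438 genes tested, 65.4% were called, so a call alone did not set the kinases apart. The sizes did vary: their median log2 fold was 0.86, against 0.00 for all genes. Camk2b was higher in excitatory neurons by 1.90 ± 0.04 on the log2 scale (SE; adjusted p = 1.13e-10), Camk2a by 1.82 ± 0.06 (8.75e-10), Camkk1 by 1.78 ± 0.06 (1.83e-09) and Camkv by 1.59 on that scale. Camk1d, Camk4 and Camkk2 were higher by 0.92, 0.81 and 0.78. These values hold for the pooled excitatory neurons, not for each class. In granule neurons Camk4 (59.8 to 62.7 CPM) was below MGE-type (73.5 to 87.0 CPM) and CGE-type neurons (217 to 309 CPM). Camk1d in granule neurons (369.7 to 462.5 CPM) overlapped with MGE-type neurons (339.6 to 472.3 CPM). Camk2d (log2 fold -1.17 ± 0.04, adjusted p = 1.99e-09) and Camk1g (-1.19 ± 0.08, adjusted p = 3.54e-07) were lower in excitatory neurons, in 4 of 4 libraries. The excitatory pool left out the thalamic gate, where Camk2d was at 459 to 681 CPM, against 161 to 203 CPM in inhibitory neurons. The inhibitory class left out medium spiny neurons. These had 929 and 987 CPM of Camk4 and 139 and 208 CPM of Camkk2 in the wild-type and total knockout libraries. Camk2g had a log2 fold of -0.14 (adjusted p = 0.0708). Scaling by total UMIs in place of TMM factors shifted all genes in this contrast by -0.12, and Camk2g was then called lower in excitatory neurons (-0.26, adjusted p = 0.00363). It was also called without the library labelled total knockout (-0.19, adjusted p = 0.0362) and under 5 further alternatives.

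Free RNA from lysed cells gives neurons some counts of genes they do not express, so the kinases were set beside genes that mark excitatory neurons. In inhibitory nuclei, Slc17a7, the vesicular glutamate transporter, was at 1.55% to 2.86% of its level in excitatory neurons, Neurod2 at 2.03% to 3.91%, Nrn1 at 2.27% to 3.31%, Neurod6 at 4.00% to 5.48% and Tbr1 at 2.22% to 8.69%. Camk2a was at 27.3% to 34.9% of its excitatory level in the same nuclei, Camk2b at 27.4% to 31.1%, Camkk1 at 27.3% to 33.8% and Camkv at 30.3% to 41.2%. In every library each of these 4 kinases was above each of the 5 markers. All 5 were on the marker list of excitatory neurons, and inhibitory nuclei had to score above that list. The gate itself thus favoured low values of the 5 markers, and no kinase was a marker. The part of free RNA in the inhibitory levels was not tested.

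Glial nuclei were different. In oligodendrocytes Camk2a was at 31.1%, 5.85%, 54.7% and 44.5% of its excitatory level in the libraries labelled wild type, total, astrocyte and neuron knockout, and Slc17a7 at 27.8%, 5.84%, 43.5% and 33.4%. Camk2b took the values 42.5%, 6.95%, 70.4% and 66.1%. The order of the 4 libraries was the same for the 3 genes, and the astrocyte and neuron knockout libraries gave only 59 and 80 oligodendrocytes; the part of free RNA in these glial kinase values was not tested. Between excitatory neurons and oligodendrocytes 9 of 10 genes were called, all higher in excitatory neurons (19.2% of 17770 genes were called higher, 32.7% in either direction), led among genes with counts in every library by Camk4 (log2 fold 2.86 ± 0.26) and Camkk2 (2.50 ± 0.35). Camk2d was not called (0.58, adjusted p = 0.0664). Camk1g had 0 UMIs in oligodendrocytes of 2 libraries. In this contrast total-UMI scaling shifted all genes by -0.23 and ended the calls of Camk2b and Camk2g; so did leaving out the library labelled wild type (Camk2b adjusted p = 0.0771, Camk2g 0.14). Camk2b also lost its call without the library labelled astrocyte knockout (0.0553) or neuron knockout (0.0512), and Camk2g without total knockout (0.0515), where Camk2d gained one (0.63, 0.00863). With classes from clusters Camk2b (0.0753) and Camk2g (0.121) lost their calls and Camk2d gained one (0.66, 0.0234), and DESeq2 ended that of Camk2g (0.0758).

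Granule neurons differed from pyramidal neurons in kinase makeup. Against CA1 neurons 9 of 10 genes were called, 3 higher and 6 lower in granule neurons, where 62.2% of 15860 genes were called. Camk2g (log2 fold 1.15 ± 0.05, adjusted p = 2.52e-11), Camkk1 (1.03 ± 0.05, 4.54e-10) and Camk2b (0.77 ± 0.03, 2.33e-11) were higher in granule neurons. Camk1g (-4.38 ± 0.19), Camk4 (-1.81 ± 0.05), Camk2d (-1.34 ± 0.12), Camk1d (-0.56), Camkk2 (-0.43) and Camkv (-0.39) were lower, each in 4 of 4 libraries. Camk2a had a log2 fold of -0.01 ± 0.03 (adjusted p = 0.888), and of 0.06 with total-UMI scaling. Against CA3 neurons 9 of 10 were again called, 4 higher and 5 lower in granule neurons (62.0% of 15802 genes were called). The largest differences there were Camk1g (-3.34), Camk4 (-2.59), Camk2g (1.67) and Camk1d (-1.64). Both comparisons use the same granule nuclei.

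Between CA1 and CA3 neurons 9 of the 10 genes were called (5 higher and 4 lower in CA1), in a contrast where 48.8% of 15394 genes were. Camk1d (log2 fold -1.08 ± 0.03) and Camk4 (-0.78 ± 0.03) were lower in CA1, and Camk1g (1.04 ± 0.12), Camk2g (0.52 ± 0.06) and Camkv (0.43 ± 0.04) were higher. Camk2a was also called higher (0.16, adjusted p = 0.000341), and lost its call with classes from clusters (0.07, adjusted p = 0.0709). Camk2d was not called (-0.18, adjusted p = 0.169), and its direction depended on how nuclei were grouped: -0.69 with a stricter gate (adjusted p = 1.77e-06) and 0.34 (adjusted p = 0.00218) with classes taken from clusters. Without the library labelled astrocyte knockout it was called lower in CA1 (-0.33, adjusted p = 0.0174). Camkk2 (0.17, adjusted p = 0.0122) lost its call without the library labelled astrocyte knockout (0.0738) and without the one labelled neuron knockout (0.123), and also with DESeq2 (0.11), without the library block (0.166) and with male nuclei only (0.106).

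**Figure D3:**
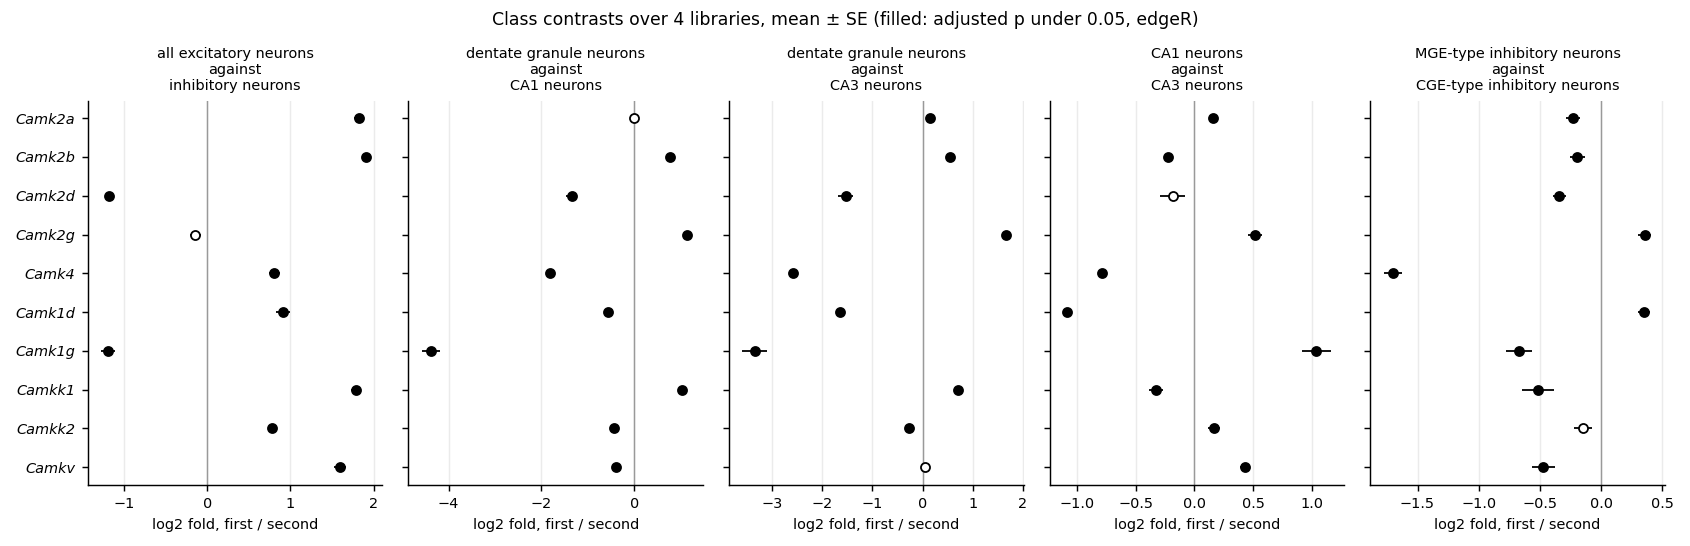
log2 fold of each gene (y axis) between the 2 classes named above each panel (x axis, first class over second, its own scale in each panel), as edgeR estimates with their standard errors over 4 libraries. Filled points passed an adjusted p of 0.05. Camk4 and Camk1g lie far to the left in both granule neuron panels (Camk4 -1.81 and -2.59), while Camk2g lies to the right (1.15 and 1.67).

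Camk4 and the CaMKI genes followed other orders over the classes than Camk2a and Camk2b. Camk4 was at 62.4, 60.5, 59.8 and 62.7 CPM in granule neurons, at 202, 223, 182 and 214 CPM in CA1, and at 360, 379, 320 and 368 CPM in CA3 neurons. Subicular or cortical neurons had 390 to 410 CPM. The medium spiny neurons of the wild-type and total knockout libraries had 929 and 987 CPM, the highest of any class, from 39 and 827 nuclei. An annotated antisense gene, 2310026I22Rik, overlaps Camk4 and was counted separately; whether the counting used strand was not given in the sources used here.

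Camk1d, the delta isoform of CaMKI, peaked in CA3 neurons at 1197, 1216, 1426 and 1210 CPM, above all other classes and without overlap. CA1 neurons had 537 to 631 CPM, granule neurons 370 to 463 CPM and CGE-type neurons 284 to 363 CPM. Camk1g, the gamma isoform, was a low-count gene, higher in inhibitory than in granule and pyramidal neurons: 22.7, 24.3, 21.0 and 26.1 CPM in CGE-type and 14.3, 15.5, 16.0 and 14.6 CPM in MGE-type neurons, against 12.3, 9.78, 10.7 and 14.2 CPM in CA1 neurons. The excitatory neurons of no named region, gated as other excitatory, had 15.7, 14.8, 17.3 and 19.6 CPM, which overlapped with the MGE-type values. Granule neurons held 13, 8, 11 and 4 Camk1g UMIs in all, or 0.799, 0.409, 0.787 and 0.302 CPM. Granule and CA1 values were far apart in every library. In the granule gate, the CA1 marker list summed to 197 to 310 CPM, against 2409 to 2700 CPM in the CA1 gate.

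The windows before the starts of these 2 CaMKI genes were the only others long enough to print. Camk1d was called higher and Camk1g lower in excitatory than in inhibitory neurons. Camk1d (minus strand, chr2:5293457-5714515) has its first RefSeq window at chr2:5714763-5715012, and Camk1g (minus strand, chr1:193346346-193370298) one of 234 bases before its first annotated exon at chr1:193370299-193370532, again 5′ to 3′ with CG in capitals.
Camk1d: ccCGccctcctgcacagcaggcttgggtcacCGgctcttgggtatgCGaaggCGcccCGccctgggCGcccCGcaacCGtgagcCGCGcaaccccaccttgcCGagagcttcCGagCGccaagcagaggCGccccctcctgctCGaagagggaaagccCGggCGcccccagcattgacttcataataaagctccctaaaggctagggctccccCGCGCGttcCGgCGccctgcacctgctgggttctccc
Camk1g: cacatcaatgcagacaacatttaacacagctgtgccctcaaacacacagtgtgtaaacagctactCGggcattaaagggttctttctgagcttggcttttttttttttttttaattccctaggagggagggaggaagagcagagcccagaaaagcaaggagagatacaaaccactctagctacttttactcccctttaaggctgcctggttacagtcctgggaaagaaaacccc
Camk1d held 22 CG dinucleotides and 69.2% G or C, and Camk1g 1 and 44.9%. The bases just after the Camk1d start used here matched no annotated Camk1d transcript. A further RefSeq start of that gene had no window outside exons. Of all promoter windows cut to 234 bases, 20.5% held at most 1 CG. Each held 1 E-box (CANNTG), as 66.2% of windows of 250 bases hold at least 1, and neither held the half-site TGACG. Among the 4 sequences printed, the gene with the lowest counts had the CG-poor window; this is a description of 4 sequences.

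The 2 kinases that activate CaMKI and CaMKIV differed in where they were high. Camkk1 was highest in granule neurons, at 49.3, 52.3, 55.5 and 53.5 CPM, followed without overlap by CA3 (28.5 to 33.5 CPM) and CA1 neurons (20.7 to 27.3 CPM), and it was at 6.70 to 13.7 CPM in inhibitory neurons. Camkk2 had a flatter profile over neurons, at 78.1 to 95.3 CPM in CA1, 66.3 to 84.3 CPM in CA3, 62.0 to 75.0 CPM in granule and 38.4 to 54.0 CPM in inhibitory neurons. Its highest values were the 139 and 208 CPM of medium spiny neurons in the wild-type and total knockout libraries. Camkv was at 89.8, 99.2, 109 and 118 CPM in CA1, 69.8, 81.3, 89.0 and 93.9 CPM in granule and 65.7, 75.6, 78.2 and 92.5 CPM in CA3 neurons, and at 22.2 to 38.4 CPM in inhibitory neurons. The CA1, granule and CA3 ranges overlapped with one another, but within each library CA1 was the highest of them.

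Within inhibitory neurons the 2 lineages differed most in Camk4. MGE-type neurons had 73.5, 87.0, 80.1 and 84.0 CPM and CGE-type neurons 236, 217, 309 and 293 CPM (log2 fold -1.70 ± 0.08, adjusted p = 3.34e-11). Of the 10 genes 9 were called, 2 higher (Camk2g and Camk1d, both by 0.35) and 7 lower in MGE-type neurons, where 37.1% of 14529 genes were called. Apart from Camk4, the lower genes ranged from Camk1g (-0.67) to Camk2b (-0.19). With male nuclei only, the calls of Camk2a, Camk2b and Camkk1 were lost, which left 4 lower genes. DESeq2 ended the calls of Camk2b (adjusted p = 0.197) and Camkk1 (0.0913), and the fit without the library block those of Camk2a (0.0844) and Camk2b (0.144). Likewise, without the library labelled total knockout Camk2b lost its call (adjusted p = 0.205), as it did without the one labelled astrocyte knockout (0.0608). Camkk2 had a log2 fold of -0.15 (adjusted p = 0.118), and was called lower without the library labelled astrocyte knockout (-0.21, 0.0378).

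Clusters of nuclei, computed with the 10 genes left out, showed further spread between clusters of the same class name. These clusters also held nuclei outside the gate of that name. The comparison of clusters is a description. A CA3 cluster of 411 nuclei led by Lrp2, Amigo2 and Fyb2 had 688 to 828 CPM of Camk4, against 285 to 369 CPM in the main CA3 cluster and 178 to 214 CPM in the third one; its Camk2d level was 6.39 to 8.92 CPM against 29.9 to 38.9 CPM in the main cluster. Amigo2 is a known marker of CA2, which the CA3 gate does not separate. Clusters of granule neurons regrouped when the numerical settings of the clustering changed, so no values are given for them.

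Camk2d split the CA1 neurons. It was at 14.7, 10.04, 6.73 and 13.2 CPM in the largest CA1 cluster (4106 nuclei) and at 51.4, 90.3, 84.4 and 77.4 CPM in another one of 2259 nuclei. Camk1g split the MGE-type neurons: the Sst, Crhbp and Npy cluster had 21.9 to 27.7 CPM, the Pvalb, Tac1 and Mypn cluster 8.30 to 10.5 CPM. Of the other inhibitory clusters, the Vip cluster had 29.2 to 38.7 CPM and the Hapln1, Sfta3-ps and Mctp2 cluster 0 to 1.83 CPM. Camk4 was at 308 to 458 CPM in the cluster led by Frem1, Htr3a and Pde3a and at 60.7 to 72.9 CPM in the Pvalb cluster. Camk2d reached its highest level, 1087 to 1228 CPM, in an unnamed cluster of 316 nuclei led by Cpa6, Lef1 and Pth2r.

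**Figure D4:**
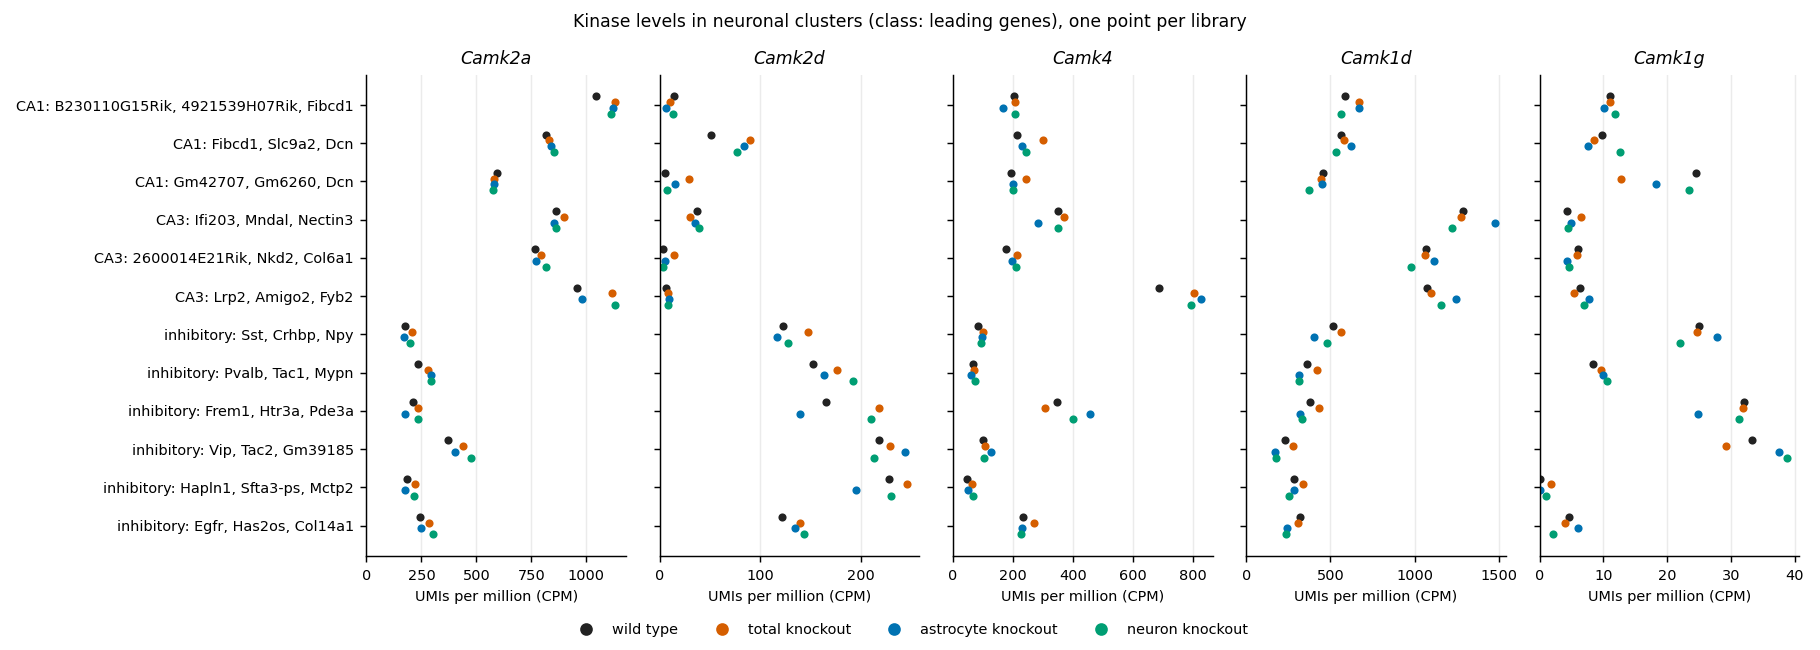
Levels of 5 of the genes (x axis, CPM, linear from 0, its own scale in each panel) in 12 clusters of CA1, CA3 and inhibitory neurons with more than 400 nuclei, each labelled by its class and 3 leading genes (y axis), with 1 point per library. Camk4 stands out at 688 to 828 CPM in the cluster led by Lrp2, and Camk1g at 29.2 to 38.7 CPM in the Vip cluster.

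A list of 49 other genes of the pathway gives the surroundings of the kinases. Between excitatory and inhibitory neurons 30 of the 49 were higher in excitatory neurons and 12 lower (33.2% and 32.2% of all genes); their median log2 fold was 0.32, against 0.00 over all genes. Nrgn, neurogranin, a calmodulin-binding protein of dendrites, was higher by 3.33, Ppp3ca, the catalytic subunit of the calcium-dependent phosphatase calcineurin, by 1.99, Pcp4, a small calmodulin-binding protein, by 1.97 and Camk2n1, an inhibitor of CaMKII, by 1.35. Lower in excitatory neurons were Camk2n2 (-1.72), which also encodes a CaMKII inhibitor, Camk1 (-1.54), the alpha isoform of CaMKI, and Mef2c (-1.22), a transcription factor. The calmodulin genes Calm2 and Calm3 were higher by 0.81 and 0.26.

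Between granule and CA1 neurons 21 of the 49 were higher and 21 lower in granule neurons (31.5% and 30.7% of all genes). Gap43, a calmodulin-binding protein of axons (-4.97), Stx1a (-1.31) and Camk1 (-1.18) were lower in granule neurons, and Pcp4 (4.54), Tiam1, a Rac activator (3.05), Mef2c (2.72) and Camk2n1 (1.13) were higher. Camk1, Camk1d and Camk1g were each lower in granule than in CA1 neurons. Pnck, a further kinase of the family on the list, is not reported here. Calm2 was lower (-0.56), and Calm3, at 0.00, did not pass the test (adjusted p = 0.947).

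Against CA3 neurons 19 of the 49 were higher and 19 lower in granule neurons (31.7% and 30.3% of all genes). Tiam1 (3.49), Pcp4 (2.57), Mef2c (2.40) and Camk2n1 (0.45) were higher, and Gap43 (-3.70), Mylk, myosin light chain kinase (-2.25), and Camk1 (-1.94) were lower. Calm2 (0.01) and Calm3 (0.11) did not pass the test. Between CA1 and CA3 neurons 20 were higher and 17 lower in CA1 (25.0% and 23.8%). Gap43 (1.28), Dapk1 (0.91), Dclk1 (0.64) and Calm2 (0.57) were higher in CA1, and Mylk (-2.18), Pcp4 (-1.97), Cacna1c, an L-type calcium channel subunit (-1.80), and Camk2n1 (-0.68) were lower. Calm3 (0.11) did not pass.

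In MGE-type against CGE-type neurons 10 were higher and 16 lower (19.2% and 17.9% of all genes). Actn2, an actin-binding protein (2.00), Hdac4, a histone deacetylase (1.36), and Gria1, an AMPA receptor subunit (1.31), were higher in MGE-type neurons, and Pcp4 (-0.69), Cacna1c (-0.53) and Dapk1 (-0.50) were lower. Camk2n1 (-0.21), Calm2 (-0.01) and Calm3 (-0.19) did not pass. In excitatory neurons against oligodendrocytes 27 were higher and 3 lower (19.2% and 13.6%). Actn2 (2.39), Gap43 (2.26) and Calm2 (1.42) were higher in excitatory neurons, and Actn4 (-1.10), Hdac5 (-0.80) and Creb1 (-0.67) were lower. Camk2n1 (1.27) and Calm3 (0.29) did not pass.

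Across 57 class-by-library sums from 16 classes, Camk2a and Camk2b levels were correlated with each other (Pearson r of log2 CPM 0.90). Camk2a was also close to Camkv (0.88) and ran against Camk2d (-0.41). These sums share libraries and include related classes, so r is a description. They also include the small thalamic, microglial, choroid plexus and vascular gates. Of 17299 other genes, Ryr2 (0.94) and Grin2a (0.94) were most like Camk2a, Prkce (0.94), Ppp3ca (0.93) and Add2 (0.92) most like Camk2b, and Rasgef1a (0.89) most like Camkv. Grin2a, Ryr2 and Ppp3ca encode an NMDA receptor subunit, the ryanodine receptor and calcineurin A. Closest to the others were Whrn for Camk2d (0.84), Sparcl1 for Camk2g (0.85), Kcnq5 for Camk4 (0.81), Lpl for Camk1d (0.80), Clstn3 for Camk1g (0.76), Grin2a for Camkk1 (0.83) and Gucy1a2 for Camkk2 (0.82).

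Few of the kinase genes differed by 1.5-fold between the genotype-labelled libraries, and with 1 library each no test was possible. Each knockout-labelled library was set against the same wild-type library in 6 neuronal classes (the mixed gate of other excitatory neurons was not counted), with 59 gene-by-class pairs that reached 100 UMIs of the 60; Camk1g in granule neurons fell short. At 1.5-fold, 1 of 59 was past the threshold in the library labelled total knockout, 1 of 59 in astrocyte knockout and 0 of 59 in neuron knockout. All 3 counts were higher after thinning and with male nuclei only, as given in the last section. Shares over all genes were taken at the main setting only. For all genes in the same 3 libraries, the shares past 1.5-fold were 7.23%, 7.05% and 6.55% in granule neurons, 7.79%, 4.49% and 6.24% in CA1, 7.49%, 5.82% and 8.32% in CA3 and 6.23%, 6.18% and 5.95% in subicular or cortical neurons. In MGE-type neurons they were 7.72%, 7.20% and 7.37%, and in CGE-type neurons 7.07%, 8.94% and 9.53%. These shares take in every gene from 100 UMIs up, and counting error is larger at low counts. In granule neurons Camk2a had 63281 UMIs and Camk2d 1065. The kinases and all genes were thus not compared at like depth.

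The first pair past the fold was Camk2d in CA1 neurons. It was at 31.4 CPM in wild type and at 50.3, 41.8 and 41.2 CPM in the libraries labelled total, astrocyte and neuron knockout, log2 ratios of 0.68 (95% interval 0.49 to 0.87), 0.41 (0.22 to 0.61) and 0.39 (0.19 to 0.59). The intervals cover counting error only. With male nuclei only the 3 values were 0.93, 0.89 and 0.38, and with nuclei thinned to 1000 UMIs 0.37, -0.12 and 0.05, so the sign for astrocyte knockout turned. Within the largest CA1 cluster the order was different, with wild type the highest of the 4 libraries (14.7 CPM). In the CA1 cluster of 2259 nuclei, where the gene was higher, wild type was the lowest (51.4 CPM against 77.4 to 90.3 CPM). The CA1 cluster of 1129 nuclei is not described here. In CA3 neurons Camk2d was at 53.7, 61.0, 36.1 and 39.7 CPM, so the astrocyte and neuron knockout libraries lay below wild type there (-0.57 and -0.43) and above it in CA1; with classes from clusters the CA3 values were -0.01 and 0.12.

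The second pair was Camkk1 in MGE-type neurons, at 6.70 CPM in wild type and 9.35, 10.7 and 9.17 CPM in the others, with a log2 ratio of 0.67 (0.10 to 1.28) for the library labelled astrocyte knockout. It rests on 42 UMIs in wild type and 63 in that library. The ratio was 0.50 with classes from clusters and 0.55 after thinning, both under 1.5-fold, and 1.30 with male nuclei only.

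Camkv was lower in the wild-type library than in each knockout-labelled library in granule, CA1, CA3 and subicular or cortical neurons, without passing 1.5-fold. In the order total, astrocyte and neuron knockout, the log2 ratios over wild type were 0.22 (0.11 to 0.33), 0.35 (0.23 to 0.47) and 0.43 (0.31 to 0.55) in granule neurons, 0.14, 0.27 and 0.40 in CA1, 0.20, 0.25 and 0.49 in CA3 and 0.23, 0.22 and 0.18 in subicular or cortical neurons. The 3 ratios share the wild-type library and are not independent. In other excitatory neurons the values were -0.08, 0.25 and 0.30, in MGE-type neurons 0.02, -0.26 and -0.20, and in CGE-type neurons 0.23, -0.02 and 0.34. With male nuclei only, granule neurons gave 0.20, 0.40 and 0.44, and with thinned nuclei 0.00, 0.25 and 0.27. In subicular or cortical neurons male nuclei gave 0.06, -0.10 and 0.09. Over granule, CA1, CA3 and subicular or cortical neurons of the 3 libraries, the log2 ratio of Camk2a ranged from -0.06 to 0.10 and that of Camk2b from -0.12 to 0.18. From wild type to total, astrocyte and neuron knockout, Camk2a was at 210, 249, 225 and 246 CPM in MGE-type neurons. It was at 270, 305, 221 and 276 CPM in CGE-type neurons. Camk2b was at 76.5, 85.5, 79.1 and 91.3 CPM in MGE-type and 83.1, 108, 91.2 and 90.7 CPM in CGE-type neurons. In other excitatory neurons, in the order total, astrocyte and neuron knockout, Camk2a was at -0.0018, 0.24 and 0.17 and Camk2b at 0.25, 0.42 and 0.39.

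**Figure D5:**
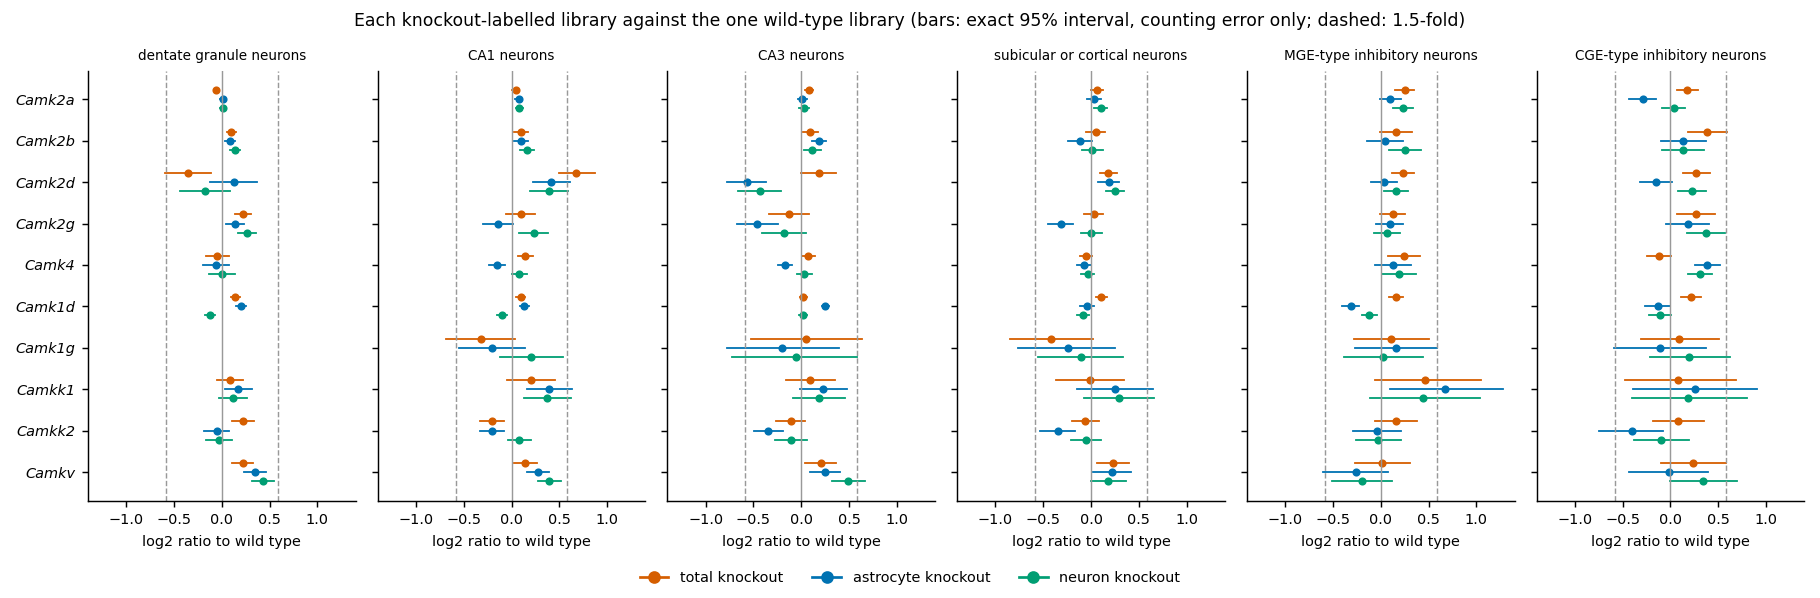
log2 ratio of each gene (y axis) in a knockout-labelled library to the single wild-type library (x axis) in 6 neuronal classes, with exact 95% intervals for counting error only and dashed lines at 1.5-fold. Genes under 100 UMIs in the class are not drawn. Camk2d in CA1 neurons of the library labelled total knockout (0.68) and Camkk1 in MGE-type neurons of astrocyte knockout (0.67) are the points past a dashed line.

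In the 3 libraries that held both sexes, female and male nuclei of the same class were compared within each library, in granule, CA1, CA3 and inhibitory neurons. Camk2a was lower in female nuclei in 10 of 12 class-by-library pairs, and so was Camk2b, with log2 differences from -0.29 to 0.11 and from -0.21 to 0.02. The 95% counting interval lay below 0 in 8 of the pairs for Camk2a and in 3 for Camk2b. The pairs are classes of the same 3 libraries, so they are not independent. These counts have no share over all genes beside them and no test. The largest Camk2a difference was in granule neurons of the library labelled neuron knockout, at 900 CPM in female and 1099 CPM in male nuclei (log2 difference -0.29, 95% interval -0.35 to -0.23), against 1016 and 1022 CPM in wild type. Camk2g was higher in female nuclei in 10 of 12 pairs (-0.02 to 0.53). Camk2d had no common direction: in granule neurons it was at 28.9 CPM in female and 11.5 CPM in male nuclei of the astrocyte knockout library and at 12.1 and 18.9 CPM in neuron knockout. Nuclei of one sex in a library come from an unknown number of animals, so sex and animal cannot be told apart.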

How the data were processed

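The 4 libraries, 1 per genotype, measured RNA in nuclei of mouse hippocampus. The deposited values are UMI counts for each gene in each barcode, made with Cell Ranger ARC 2.0.0 against mm10 per the submitters' processing notes; strand use and intron handling were not given in the sources used here. Feature and barcode lists were used for names only.

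Barcodes with at least 500 genes and at most 5% mitochondrial UMIs were kept, and doublets called by Scrublet (scanpy 1.11.5, expected rate 0.8% per 1000 barcodes) were removed in each library. Each nucleus was gated to the class whose markers had the highest mean standardized log level, with a minimum score of 0.5 for the main neuronal lists or 1 for the others and a margin of 0.25 over the next. Of 51320 nuclei, 13745 stayed ungated. Leiden clusters were computed from 2000 variable genes with the 10 kinases left out, on principal components rounded to make the result reproducible. They are 1 partition of the nuclei, and another gave other clusters of granule neurons. A nucleus was called female with at least 2 Xist UMIs and none of Y-linked genes, and male the other way round.

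Counts were summed per class and library and divided by the class total (CPM). Class contrasts used edgeR 4.0.16 (R 4.3.3; TMM, filterByExpr, library as block, glmQLFTest) on at least 20 nuclei per library, Benjamini-Hochberg over all genes. The 4 libraries served as replicates of a class and differ in genotype. With the library as a block, p-values measure how far the class difference varied between libraries. They do not measure the spread of levels between libraries or genotypes. The test was checked on simulated data in which few genes differed, in equal numbers up and down. This did not check the scaling where many genes differ, as in the contrasts here. Library ratios added 1 UMI to each count, used genes with at least 100 UMIs and classes with at least 100 nuclei per library, and carry exact binomial 95% intervals; UMI intervals cover counting error only. A ratio was called past 1.5-fold.

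The text names all 10 kinases, genes among the 3 most like each by Pearson r of log2(CPM + 1), and from the pathway list the 3 called genes with the largest log2 fold in each direction of a contrast, plus Camk2n1, Calm2 and Calm3; some genes that this rule names are not reported here. The members, lists and markers were chosen with earlier results of these data known. Alternatives covered DESeq2 1.42.0, filters, doublets, sex, gate, clusters, thinning, scaling and left-out libraries; total-UMI scaling of the class contrasts was added after seeing the data. Microglial, choroid plexus and vascular gates entered the correlations and were otherwise left out of the account. The thalamic gate also entered the correlations and was described for Camk2d only.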

Additional observations from a re-analysis of the deposited data

How the results depend on the processing

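Each contrast between classes called 9 of the 10 kinases, and no alternative moved a count of called kinases or pathway genes, both directions together, by more than 1.5 times. The 7 kinases lower in MGE-type than in CGE-type neurons became 4 with male nuclei only. Of 720 single-gene values under alternatives, 676 kept direction and call, 25 lost the call, 12 gained it and 7 changed sign. The sign changes were Camk2a in granule against CA1 neurons (0.063 with total UMIs in place of TMM, 0.020 with male nuclei only, 0.065 with clusters, and from -0.021 to 0.013 with 1 library left out, the highest without the library labelled total knockout), Camkv in granule against CA3 neurons (-0.042 with clusters), Camk2d in CA1 against CA3 neurons (0.34 with clusters) and Camk2d in excitatory neurons against oligodendrocytes (-0.074 with male nuclei only). No paired analysis was possible because each genotype had 1 library; the class contrasts carry the library as a block, and without it 3 calls were lost.

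Counts of gene-by-class pairs past the fold rest on few pairs. Shares over all genes were taken at the main setting only. The counts under alternatives therefore cannot be set against genes in general. For the library labelled total knockout the count was 1, and 6 at 5/4-fold, 2 with 20 UMIs, 2 with doublets kept, 2 with male nuclei only and 2 of 49 after thinning to 1000 UMIs. For astrocyte knockout it was 1, and 10 at 5/4-fold, 3 with male nuclei only, 6 after thinning and 0 with clusters. For neuron knockout it was 0, and 9 at 5/4-fold, 1 with 20 UMIs, 2 with male nuclei only and 3 after thinning. Camk2 shares were checked for Camk2a, Camk2b and Camk2g in granule and CA1 neurons and for Camk2d in granule and inhibitory neurons. Other shares were not checked. In CA1 neurons medians moved by more than the SD over libraries for Camk2a (74.2% with the stricter gate, 73.8% with male nuclei). There they also did so for Camk2b (20.1% with the stricter gate) and Camk2g (3.76% with male nuclei). In granule neurons they did so for Camk2d (1.37% with doublets kept, 0.880% with male nuclei) and Camk2g (7.44% with male nuclei). In inhibitory neurons the Camk2d median did (28.9% with male nuclei). The cause of these changes was not tested. Low counts limit Camk1g and the glial classes.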
